A study of Sus scrofa with 14 samples.

Results

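The circular RNAs (circRNAs) of 2 pig genes, ENSSSCG00000020975 on chromosome 13 and ENSSSCG00000026340 on chromosome 6, were described over stages and regions of the embryonic brain. All deposited lines whose host field names either gene were taken, which gave 13 of 5585 lines in the table of the cortex series and 10 of 3967 in the table of 5 brain regions. Together these are 15 different circRNAs of 6720, with 11 from the chromosome 13 gene and 4 from the chromosome 6 gene. Each gene has 1 dominant, long circRNA, the one with most reads, called the main circRNA here, and the rest are called minor. The genes were chosen by the RPM of the main circRNAs, which were abundant and had their highest values in late cortex, so all cortex values are a description and carry no test. The gene name tables used here held a symbol for 0 of the 2 genes, so neither gene is given a name or a role.

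A circRNA arises when the spliceosome joins the end of an exon to the start of an exon upstream of it or of the same exon, which closes the RNA into a loop without free ends. Reads across that backsplice junction count the circle, whereas the FPKM of the host gene (fragments per kb of transcript per M fragments) measures transcripts of the gene as a whole. Brain tissue is rich in circRNAs, and the loops are generally more stable than linear RNA. 1 gene can give several circles that use different exons.

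The study sequenced total RNA depleted of ribosomal RNA from 14 dissected brain samples of pig embryos, with no genetic change or treatment in the labels. Forebrain came from embryonic day 23 (E23), and cortex came from 5 later stages, E42, E60, E80, E100 and E115. Basal ganglia, brain stem, cerebellum and hippocampus were taken at E115 and at E60. Each stage and region is 1 library, so no difference has a replicate check, and the labels do not say which samples share an animal. Levels are given as junction reads per M library reads (RPM) with 95% exact Poisson intervals, which cover counting error only because reads carry no molecular identifiers. In bulk tissue, fewer cells of a type and less RNA per cell cannot be told apart.

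Library totals were 21.4 to 58.8 M reads in the forebrain and cortex series and 9.67 to 37.7 M in the other regions, and a count of 0 allows up to 3 reads, or 0.0510 to 0.310 RPM. Each line also gives a total over its libraries, and the main results use the lines whose library reads sum to that total, called lines that add up. The regions line of the main chromosome 13 circRNA does not add up, with 893 reads listed of 924 stated. Its E115 and E60 cortex reads also differ between the tables, at 286 and 246 in the regions table against 449 and 112 in the cortex table, which turns the order of the stages round. A second irregularity concerns the host FPKM of the regions table. Over 1446 hosts, the column headed hippocampus correlated with the cortex column of the other table at r = 0.976 for E115 and 0.959 for E60 (log2 scale, across genes, which are not independent replicates), whereas the column headed cortex did so at 0.737 and 0.707. PROX1, a transcription factor of dentate granule cells in the hippocampus, stood at 1.62 and 1.75 FPKM under the hippocampus heading, against 10.02 and 8.92 under the cortex heading. Host FPKM of the regions are therefore given as headed, and results that use them are repeated without hippocampus.

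The main circRNA of ENSSSCG00000020975 joins 210806110 and 210875564 on the plus strand of chromosome 13 (build Sscrofa10.2), a span of 69455 bp. With 1495 junction reads it ranked 1 of all lines in the cortex table, and 628 of its reads (42.01%) were unique, against a median of 74.3% over circRNAs with at least 50 reads. The main circRNA of ENSSSCG00000026340 spans 95532 bp on the minus strand of chromosome 6, from 73334893 to 73430424. It had 714 reads, rank 6 by reads, of which 416 (58.3%) were unique. Both are long for this table. Over its 4997 lines that add up, the median circRNA spanned 9783 bp, 175 spanned more than the main chromosome 13 circRNA and 22 more than the main chromosome 6 circRNA. The position of the junction ends relative to exons, introns and UTRs was not analysed here.

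By the reads of the cortex table, the main chromosome 13 circRNA was lowest in E23 forebrain and highest at E100 and E115. Its level was 1.94 RPM (95% interval 1.60 to 2.33) in the E23 forebrain. In cortex it was 6.59 RPM (5.66 to 7.64) at E42, then 5.23 (4.31 to 6.29) at E60, 7.77 (6.75 to 8.91) at E80, 9.01 (8.18 to 9.89) at E100 and 8.32 (7.56 to 9.12) at E115. The E115 level was 4.29 times that of E23 (3.49 to 5.32) and 1.59 times that of E60 (1.29 to 1.97). With the cortex reads of the regions table, E115 stood at 5.30 RPM and E60 at 11.5, a ratio of 0.461 (0.387 to 0.549), and E60 was then the highest stage. The cortex line of this circRNA adds up to its 1495 stated reads, whereas its regions line does not add up. Among circRNAs that add up in both tables, the cortex reads differed in 0 of 2341. They differed in 110 of 137 that add up only in the cortex table. The right reads were not settled beyond that, and the values that follow use the cortex table. Neighbours in the order did not all separate, since E115 over E100 was 0.924 (0.808 to 1.06), E100 over E80 was 1.16 (0.980 to 1.37) and E60 over E42 was 0.793 (0.620 to 1.01). The main chromosome 6 circRNA varied less. It stood at 2.65 RPM (2.25 to 3.10) in the E23 forebrain, and in cortex at 2.51 (1.95 to 3.19) at E42, then 1.96 (1.41 to 2.65) at E60, 2.59 (2.02 to 3.28) at E80, 3.65 (3.13 to 4.23) at E100 and 3.76 (3.26 to 4.31) at E115. Its E115 level was 1.92 times that of E60 (1.37 to 2.74) and 1.42 times that of E23 (1.15 to 1.76), while E115 over E100 was 1.03 (0.839 to 1.27). The 4 intervals from E23 to E80 all overlapped.

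Such a course was the less common one among the 311 circRNAs with at least 50 reads, of which 61 (19.6%) had a higher level at E115 than at E60 in cortex and 32 (10.3%) were highest at E100 or E115. These shares are background for the choice of the 2 genes and say nothing more about them. Just inside that choice stood the 1495 and 714 reads of the main circRNAs. The next late ones by reads were those of ENSSSCG00000028803 with 471 reads, a circRNA with no host on chromosome 9 with 389, ENSSSCG00000024934 with 372 and ITFG1 with 213. Because all circRNA reads together were fewer at E115 than at E60, shares of them set the stages further apart than RPM did. The main chromosome 13 circRNA took 3.85% of the circRNA reads of the E115 cortex against 0.646% at E60, and the main chromosome 6 circRNA took 1.74% against 0.242%. In the regions table, the reads of the main chromosome 13 circRNA equalled 3.56% of the reads of lines that add up at E115. At E60 they equalled 1.68%. Its own line is not among those, so these are not shares of all circRNA reads.

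**Figure D1:**
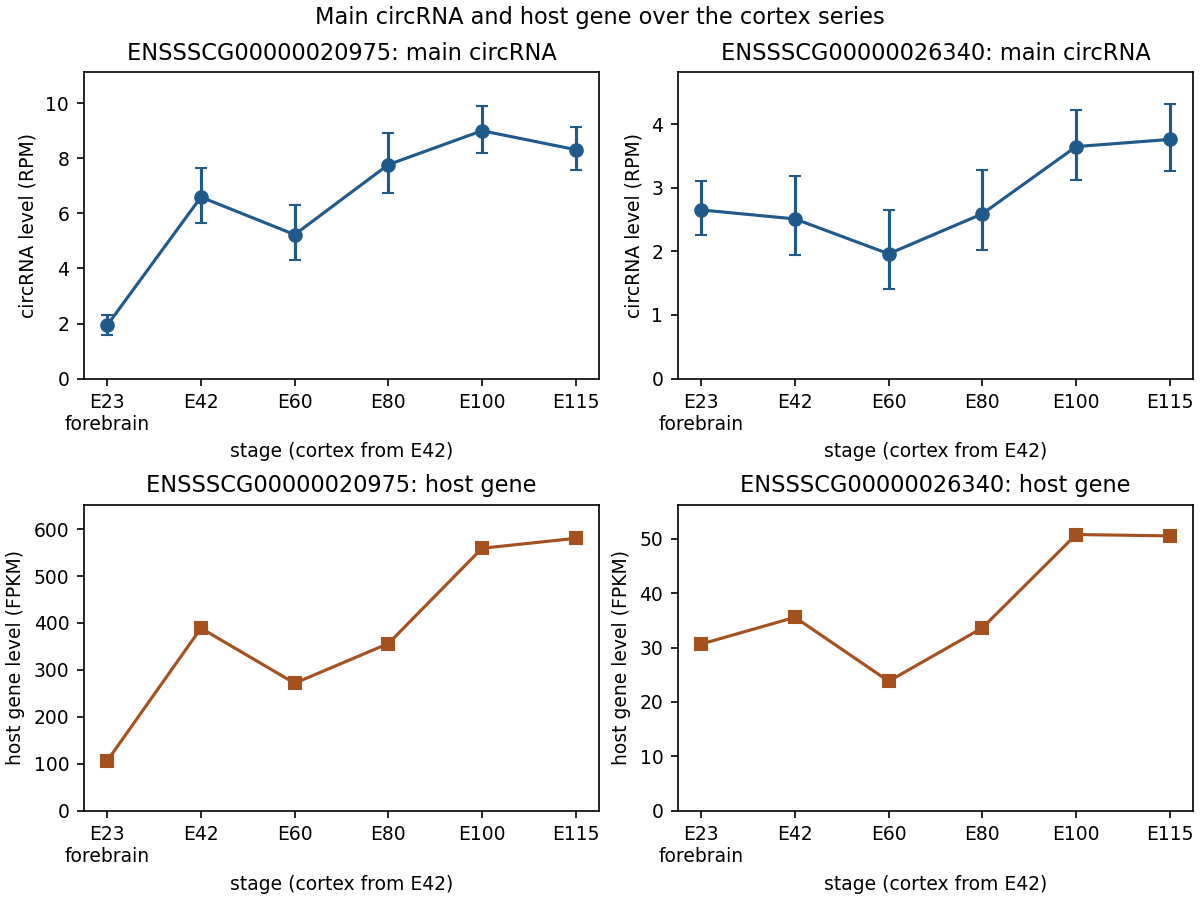
Level of the main circRNA in RPM (upper row, reads of the cortex table, with 95% exact Poisson intervals) and of the host gene in FPKM (lower row) in the 6 libraries of the forebrain and cortex series, for both genes. The chromosome 13 circRNA lies between 1.94 and 9.01 RPM and the chromosome 6 circRNA between 1.96 and 3.76 RPM, and circRNA and host gene are both lower at E60 than at E42 and highest at E100 or E115.

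The host genes resembled the main circRNAs in outline, with E60 below E42 and the highest values at E100 and E115. For the circRNAs the E60 over E42 ratio did not separate from 1. It was 0.793 (0.620 to 1.01) on chromosome 13 and 0.781 (0.518 to 1.17) on chromosome 6. The order was not the same throughout, as the chromosome 13 host was lower at E80 than at E42 and its circRNA was higher. ENSSSCG00000020975 was at 106 FPKM in the E23 forebrain and, in order of age, at 389, 272, 356, 559 and 580 FPKM in the 5 cortex libraries. Its mean of 377 FPKM ranked 24 among 2309 hosts, whose median was 14.9. ENSSSCG00000026340 was about an order of magnitude lower, at 30.7, 35.6, 23.8, 33.6, 50.8 and 50.5 FPKM over the same stages, with rank 410. Of 2264 hosts with a mean of at least 0.5 FPKM, 1138 (50.3%) were higher at E115 than at E60, so a higher E115 value was about as frequent as a lower one. FPKM carried no interval here, as no read counts stand behind it in the tables used.

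Set against the host gene, the main circRNAs varied little across 6 stages by the reads of the cortex table. The main chromosome 13 circRNA had 18.2 RPM per 1000 host FPKM in the E23 forebrain and 16.95, 19.2, 21.8, 16.1 and 14.3 in the cortex libraries in order of age. The highest of these was 1.52 times the lowest, while RPM itself spanned 4.65-fold and host FPKM 5.45-fold. With the E115 and E60 reads of the regions table the values at those stages were 9.13 and 42.3, and the span was 4.63-fold, so the even ratio of this circRNA depends on which table is used. The main chromosome 6 circRNA had 86.5, 70.6, 82.4, 77.1, 71.8 and 74.4 RPM per 1000 host FPKM, a span of 1.23-fold, while RPM spanned 1.92-fold and host FPKM 2.13-fold. Over 247 circRNAs with at least 50 reads, 1 host and reads in every library, the median span of RPM per FPKM was 4.85-fold. Of these, 11 spanned less than the main chromosome 13 circRNA and 0 less than the main chromosome 6 circRNA, both main circRNAs being among the 247. The span of RPM alone was smaller than theirs in 63 and 4 of the 247, so the level of the chromosome 6 circRNA was among the flattest before it was set against the host. A low read count widens such a span, and among the 17 with at least 400 reads the median was 2.17-fold and 5 spanned less than the main chromosome 13 circRNA.

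Markers of cell types moved over the same stages. The summed FPKM of the 4 neuron markers of 10 that the cortex table holds (SYT1, MAP2, SYN2 and CAMK2A, genes of synapses and dendrites) was 35.1 in the E23 forebrain and 330, 226, 333, 623 and 753 in the cortex libraries in order of age. That sum is also lower at E60 than at E42 and highest at E100 and E115. Its lower E60 value came from MAP2, with 289 FPKM at E42 and 174 at E60. SYT1 (38.8 and 43.0), SYN2 (1.20 and 4.32) and CAMK2A (1.14 and 4.09) were higher at E60 than at E42. The part of the sum in the result was not tested. FLT1, a vessel receptor and the only one of 14 markers of microglia, blood, vessels, meninges and choroid plexus there, ranged from 1.25 to 15.2 FPKM. The oligodendrocyte and astrocyte lists had 0 of 10 and 0 of 8 genes in that table.

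**Figure D2:**
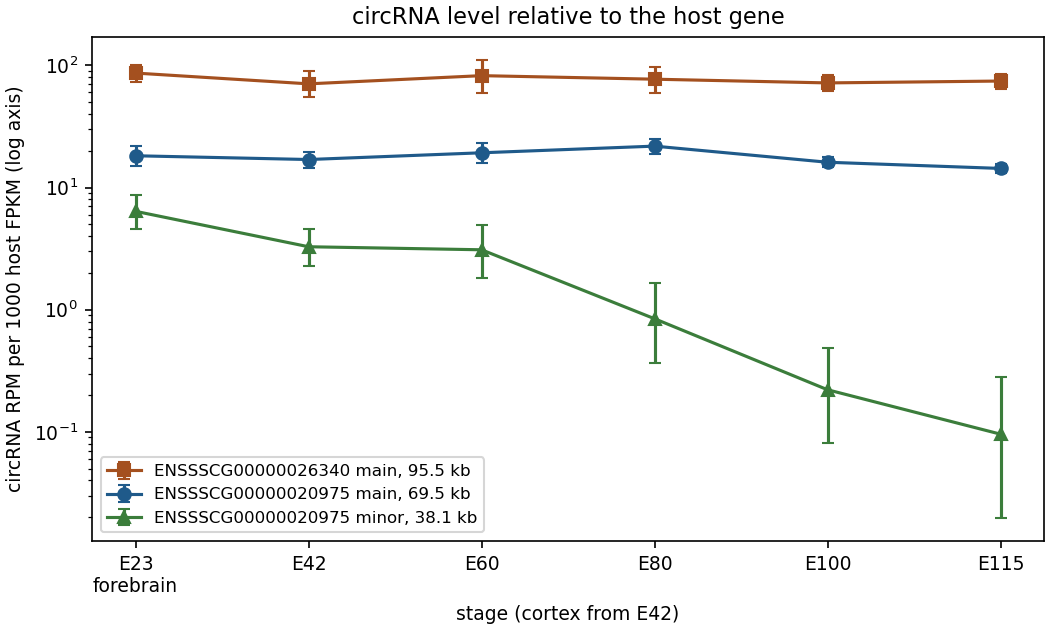
RPM per 1000 host FPKM in the 6 libraries of the forebrain and cortex series, from the reads of the cortex table, on a log axis, with bars from the 95% exact Poisson intervals of the circRNA reads, for both main circRNAs and the most abundant minor circRNA of the chromosome 13 gene. The main circRNAs stay between 70.6 and 86.5 (chromosome 6) and between 14.3 and 21.8 (chromosome 13), whereas the minor circRNA goes down to 0.0958 at E115.

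The minor circRNAs of the chromosome 13 gene had another course than the main one, with their highest summed level at E42 and their lowest at E115. The 9 lines that add up together had 66 reads in the E23 forebrain and 84, 42, 16, 18 and 6 in the cortex libraries in order of age. Their summed level was 1.12 RPM (0.868 to 1.43), 3.15 (2.51 to 3.90), 1.96 (1.41 to 2.65), 0.601 (0.343 to 0.976), 0.371 (0.220 to 0.586) and 0.111 (0.0408 to 0.242). The early libraries were thus high and the late ones low, with E115 at 0.0353 times the E42 level (0.0126 to 0.0801) and 0.0567 times the E60 level (0.0197 to 0.134). Against the host gene the sum was 10.5 RPM per 1000 FPKM in the E23 forebrain and 8.09, 7.22, 1.69, 0.663 and 0.192 in the cortex libraries in order of age. The main circRNA accordingly held 63.3% of the gene's junction reads in the E23 forebrain (exact binomial interval 55.8% to 70.4%). In cortex it held 67.7% at E42, then 72.7% at E60 (65.0% to 79.6%), 92.8% at E80 (88.6% to 95.8%), 96.0% at E100 and 98.7% at E115 (97.2% to 99.5%). The intervals up to E60 do not overlap those from E80 on. By the regions table the share at E60 was 85.7% (81.1% to 89.5%), which overlaps the E80 interval, and at E115 it was 97.9% (95.6% to 99.2%).

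Over the same stages, the summed FPKM of the 3 progenitor markers of 10 in the cortex table (SOX2, a stem cell transcription factor, and TOP2A and BUB1B, genes of dividing cells) was 262, 231, 47.7, 37.2, 59.8 and 39.5. This sum was highest at E23 and E42, whereas the summed minor level was highest at E42 and E60. That level was 3.15 RPM at E42 and 1.96 at E60, against 1.12 at E23. The part of the marker sum in the course of the minor circRNAs was not tested. Within the marker sum, TOP2A was at 206 FPKM at E23 and 2.15 at E115. SOX2 was at 30.7 at E23, 87.8 at E42 and 36.9 at E115.

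Most minor reads came from 2 circles that start at 210781573, upstream of the main circRNA. The longer one ends at 210819635, spans 38063 bp and had 40, 34, 18, 8, 6 and 3 reads over the 6 stages, or 0.680, 1.27, 0.841, 0.300, 0.124 and 0.0556 RPM. Its E115 level was 0.0436 times that of E42 (0.00857 to 0.139), and its RPM spanned 22.9-fold over the stages, more than in 213 of the 247 circRNAs above. Its RPM per FPKM spanned 66.7-fold, more than in 244 of them, which includes the 5.45-fold span of the host and rests on 3 reads at E115. The shorter one ends at 210792658, spans 11086 bp and had 21, 36, 9, 2, 3 and 0 reads. With 3 reads as the most that a count of 0 allows at E115, it was at least 24.3-fold lower there than at E42. With the counting error of both libraries, the exact interval of the E115 to E42 ratio reaches 0.0533.

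**Figure D3:**
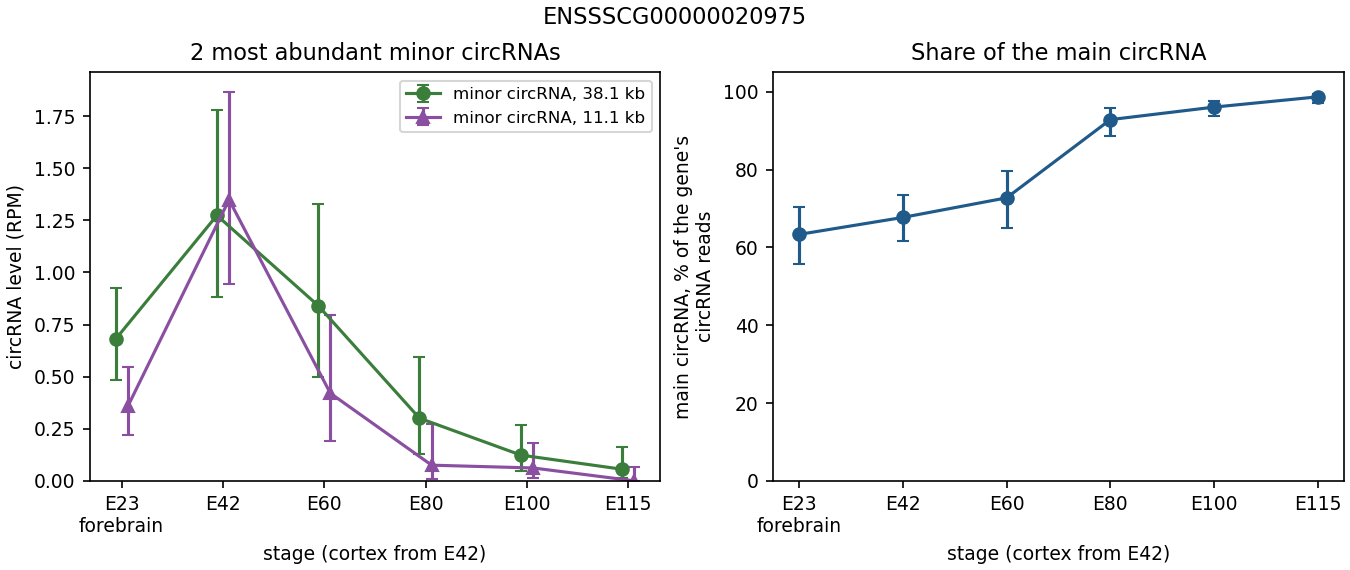
Left: level in RPM, with 95% exact Poisson intervals, of the 2 most abundant minor circRNAs of ENSSSCG00000020975 in the 6 libraries of the forebrain and cortex series, both highest at E42 with 1.27 and 1.35 RPM. Right: share of the gene's junction reads held by the main circRNA by the cortex table, with 95% exact binomial intervals, from 63.3% at E23 to 98.7% at E115.

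The other minor circRNAs of the chromosome 13 gene were rare. The circle from 210782621 to 210792658 had 18 reads (2, 5, 4, 3, 2 and 2 over the stages), and the one from 210784081 to 210792658 had 10 reads, all at E23, E42 or E60. The circle from 210819581 to 210847843 had 11 reads (1, 2, 1, 3, 3 and 1), which show no order at this depth. The remaining 5 had 2 to 5 stated reads each, and 1 of them, from 210784081 to 210787912, does not add up. So the early course of the sum rests mainly on the 2 circles from 210781573.

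The 11 circles of the gene reuse few junction ends. They have 8 different starts and 9 different ends over 93992 bp. The end at 210792658 is shared by 3 circles, and the starts at 210781573, 210784081 and 210791524 by 2 each. The main circRNA shares its start and its end with no minor circle. It overlaps the 38063 bp circle in its first part, and the 4 minor circles that end by 210792658 lie wholly upstream of it. In 3 places the start of one circle lies shortly before the end of another, 46 bp apart at 210831648 to 210831693, 55 bp at 210819581 to 210819635 and 1135 bp at 210791524 to 210792658.

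**Figure D4:**
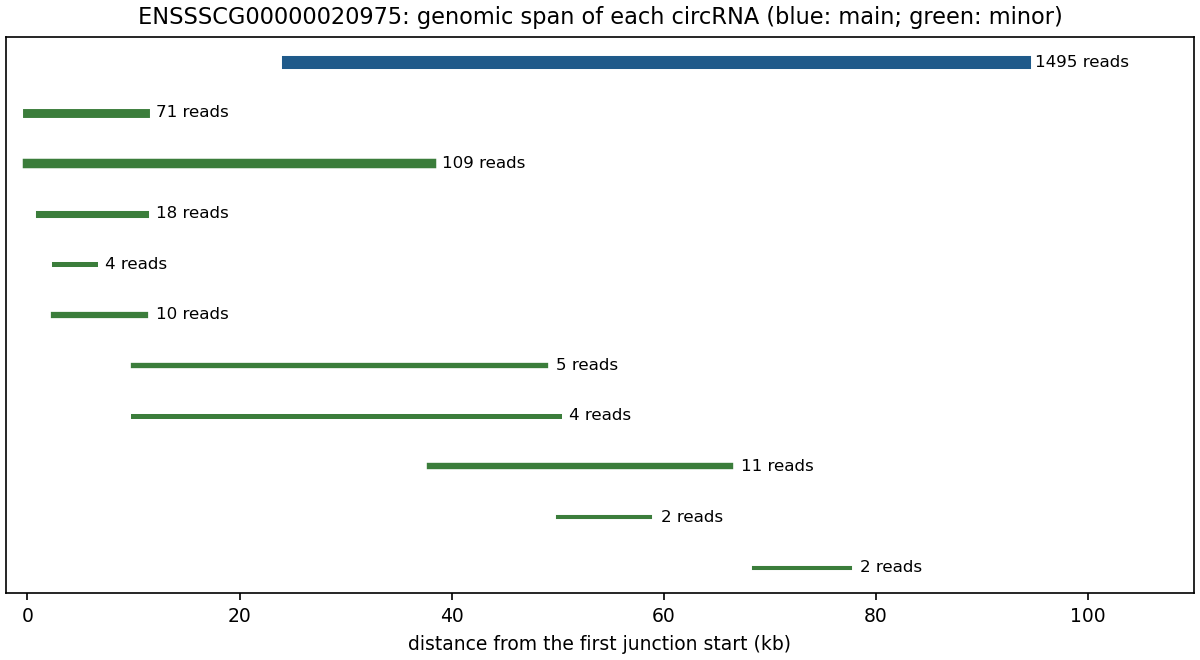
Genomic span of the 11 circRNAs of ENSSSCG00000020975, drawn to scale in kb from the first junction start, with the stated reads of the cortex table beside each (line width grows with the logarithm of the reads). The main circRNA with 1495 reads (blue) starts downstream of the circles with 71, 18 and 10 reads and of one with 4 reads, and it overlaps the circle with 109 reads.

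The chromosome 6 gene had almost no minor circRNAs. In the cortex table it had 1, from 73464474 to 73475272, listed on the plus strand, opposite to the main circRNA, with 4 reads in all (2 at E42 and 1 each at E100 and E115). In the regions table it had another 2, both on the minus strand, inside the span of the main circRNA and with the shared end 73365715, with 3 reads each. The main circRNA held 97.1% to 100% of the gene's junction reads in each of the 6 libraries of the cortex series and 90.0% to 100% in the libraries of the regions table. With 10 reads of the gene in the E60 brain stem, that lowest share has an interval of 55.5% to 99.7%.

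Outside cortex, the main chromosome 6 circRNA was found in every library, and its E115 and E60 levels differed in direction between regions. In brain stem it was at 2.60 RPM (2.11 to 3.17) at E115 and 0.681 (0.311 to 1.29) at E60, a ratio of 3.82 (1.93 to 8.61). In hippocampus it was at 2.10 RPM (1.34 to 3.12) at E115 and 0.749 (0.458 to 1.16) at E60, a ratio of 2.80 (1.48 to 5.34). In basal ganglia it was lower at E115, with 1.65 RPM (0.945 to 2.69) against 3.16 (2.17 to 4.44) at E60, a ratio of 0.524 (0.269 to 0.979). In cerebellum it was at 1.27 RPM (0.778 to 1.97) at E115 and 0.972 (0.466 to 1.79) at E60, and the ratio of 1.31 (0.585 to 3.13) was not separable from 1 at this depth. As a share of the circRNA reads of each library, the E115 and E60 intervals overlapped in each of these regions outside cortex. Cortex at E115 was the highest of the 10 libraries, with 3.76 RPM, and its interval overlapped that of the E60 basal ganglia.

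The day effect outside cortex, fitted over the 8 libraries with region as a block, did not pass the threshold of 0.05 for this circRNA. Its log2 change from edgeR's quasi-likelihood test was 0.73 (SE 0.74, Benjamini-Hochberg adjusted p = 0.601), with E115 higher in 3 of 4 regions. Of 165 circRNAs with at least 20 reads, 1 was called (0.606%), 19 (11.5%) had an unadjusted p under 0.05 and 145 (87.9%) had a log2 change above 0, with a median of 1.13. So the log2 change of the main chromosome 6 circRNA was below the median of all circRNAs tested. Scaled by factors from the circRNA counts themselves (TMM), which put the median at 0.40, it was 0.0097, and without basal ganglia it was 1.29 (edgeR adjusted p = 0.199). The called circRNA, named after its value was seen, was one of ENSSSCG00000023225 (chromosome 13, 75379989 to 75404735) with a log2 change of 3.39 (SE 0.91, edgeR adjusted p = 0.0347). No circRNA was called without brain stem, without cerebellum or without hippocampus, and 9 were called without basal ganglia. Regions were not separated either, with an edgeR adjusted p of 0.909 for the region term of the main chromosome 6 circRNA and 0 of 165 circRNAs called (0%), 14 (8.48%) having an unadjusted p under 0.05.

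**Figure D5:**
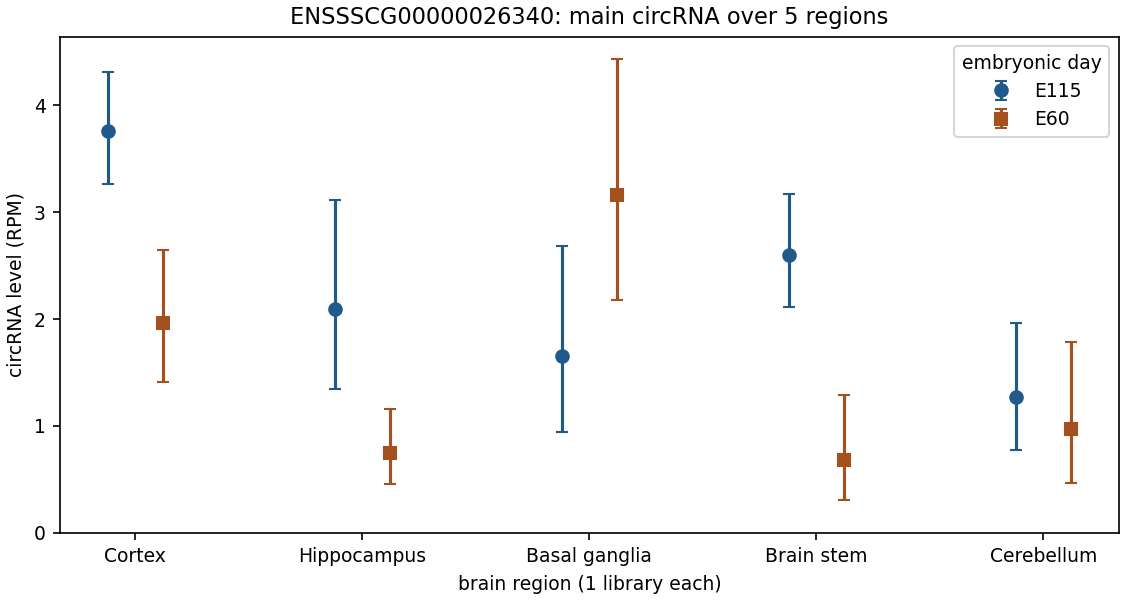
Level of the main circRNA of ENSSSCG00000026340 in RPM at E115 (circles) and E60 (squares) in 5 brain regions, 1 library per point, with 95% exact Poisson intervals. E115 lies above E60 in cortex, hippocampus and brain stem and below it in basal ganglia (1.65 against 3.16 RPM). The intervals overlap in basal ganglia and in cerebellum.

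The host gene on chromosome 6 was at 27.2 FPKM at E115 and 24.3 at E60 in basal ganglia, 28.9 and 10.16 in brain stem, 22.3 and 18.5 in cerebellum, and 39.5 and 20.6 under the hippocampus heading. It was higher at E115 in 4 of 4 regions, but the change did not pass the test, with a log2 change of 0.72 by limma on log2(FPKM + 0.1) (SE 0.47, adjusted p = 0.388). Without hippocampus it was 0.64 (limma adjusted p = 0.455). Of 1762 hosts, 169 were called (9.59%), and 387 (22%) had an unadjusted p under 0.05. Leaving out basal ganglia, brain stem, cerebellum or hippocampus gave 47, 46, 74 and 206 calls. The log2 change of circRNA level over host FPKM, E115 minus E60, was 0.36 in brain stem, 0.09 in cerebellum, 0.54 in hippocampus as headed and -1.07 in basal ganglia, with a mean of -0.019. The exact sign-flip permutation test over these 4 regions gave p = 1 (two-sided, smallest possible 0.13), so the design could not reach 0.05. Without basal ganglia the mean was 0.33 (exact p = 0.25, the smallest that 3 regions allow).

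For the chromosome 13 gene the regions give little that can be tested. The line of its main circRNA lists 0 reads at E115 and 40 at E60 in basal ganglia, 74 and 113 in brain stem, 20 and 31 in cerebellum, and 50 and 33 in hippocampus, but 31 reads of the stated total are in no library. All 191 regions lines that do not add up have 0 reads in the E115 basal ganglia, so that 0 cannot be read as an absent circRNA. With all lines kept, the edgeR log2 change was -1.59 (SE 1.001, adjusted p = 0.610). Its host was at 203 FPKM at E115 and 651 at E60 in basal ganglia, 301 and 193 in brain stem, 176 and 272 in cerebellum, and 431 and 228 under the hippocampus heading. The regions went in different directions, and the limma log2 change was -0.19 (SE 0.72, adjusted p = 0.908), or -0.55 without hippocampus and 0.31 without basal ganglia.

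The minor circRNAs of the chromosome 13 gene, whose regions lines all add up, had few reads outside cortex. The 38063 bp circle had 9 reads at E115 and 0 at E60 in cerebellum, 5 and 1 in brain stem, 2 and 1 in basal ganglia, and 3 and 2 in hippocampus, against 3 and 18 in cortex. Its E115 cerebellum level was 0.573 RPM (0.262 to 1.09), while a count of 0 at E60 allows up to 0.292 RPM. The edgeR log2 change over the 8 libraries was 1.91 (SE 1.45, adjusted p = 0.555), E115 being higher in 4 of 4 regions, and the adjusted p of its region term was 0.988. A log2 change above 0 was common, with 145 of the 165 circRNAs tested (87.9%). Its ratio of E115 to E60 in cortex was 0.0661 (0.0125 to 0.226), and the difference between cortex and the other regions was not tested. All 6 minor circles together had 15 reads at E115 (0.955 RPM, 0.534 to 1.57) and 4 at E60 (0.389 RPM, 0.106 to 0.995) in cerebellum, and these intervals overlap. All circRNA reads of the cerebellum also rose, from 1560 at E60 in 10.3 M library reads to 6056 at E115 in 15.7 M. Progenitor markers there (PAX6, TOP2A and BUB1B, 3 of 10) summed to 75.2 FPKM at E115 and 119 at E60. Of these sums PAX6 made 54.5 and 67.2, and SOX2 of the cortex sum was not among the markers. In the other 3 regions outside cortex the minor circles had 2 to 5 reads in each library, too few to separate the stages. Whether progenitors had a part in this was not tested.

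A larger share of long than of shorter circles was highest late in cortex, though most long circles were not. Of the 4997 circRNAs in the cortex table whose lines add up, 606 (12.1%) spanned at least 40 kb, and they held 22.4% of the junction reads. Among those with at least 50 reads, 21 of 74 long ones (28.4%) were highest at E100 or E115, against 11 of 237 shorter ones (4.64%). At E115 the level was above that of E60 for 34 long circles (45.9%) and for 27 shorter ones (11.4%). The main circRNAs of both genes are among the long ones, and these shares are a description of the libraries. Not all abundant long circles had that course. After the main chromosome 13 circRNA, the long circles with most reads were those of RIMS2 (826 reads), a gene of synaptic vesicle release, which was highest at E60, then the main chromosome 6 circRNA, TLK1 (667 reads), a kinase of chromatin assembly, also highest at E60, and BTF3L4 (623 reads), highest at E42.

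By likeness of level over the 6 libraries of the cortex series (Pearson's r of log2 RPM with 0.5 reads added, over 307 candidate circRNAs), the main circRNAs of the 2 genes were not each other's nearest, with r = 0.405 between them. Nearest to the main chromosome 13 circRNA were one of ENSSSCG00000023414 and ENSSSCG00000028254 on chromosome 9, 82272680 to 82310044 (r = 0.987), one with no host on chromosome 9 from 19582066 (r = 0.979) and one of ATRX, a chromatin remodeler (r = 0.971), followed by a circle of ENSSSCG00000021303 that spans 91826 bp (r = 0.967) and one with no host on chromosome 13 from 148857550 (r = 0.966). Nearest to the main chromosome 6 circRNA were another circle of the same chromosome 9 hosts, from 82271887 (r = 0.855), one of ELMOD2 (r = 0.849) and one of MSH3, a mismatch repair gene (r = 0.814), followed by one with no host on chromosome 4 from 21605708 (r = 0.804) and one of ENSSSCG00000015675 (r = 0.796). Over the 10 libraries of the regions table and 125 candidates, the nearest to the main chromosome 6 circRNA were one of ENSSSCG00000023293 and ENSSSCG00000024702 (r = 0.805), one of ENSSSCG00000025844 (r = 0.799) that spans 71725 bp, one of ENSSSCG00000022013 (r = 0.765), one of ALMS1 (r = 0.716) and one of ENSSSCG00000028803 (r = 0.713). The points share libraries and depth, and these values are descriptions of 6 or 10 libraries.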

How the data were processed

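Members and gene lists were chosen with earlier results of these data known. Junction reads were deposited as whole counts per library, and the authors' RPM and the FPKM of host genes stand beside them, per the file headers. Other values, the unique reads and the genomic length of each line, were deposited per the file headers. The submitters' processing notes name Trim Galore, TopHat2, Cufflinks, Cuffdiff and the build Sscrofa10.2 (susScr3). No circRNA caller is named in them or in the labels, and it is not given in the sources used here, nor are its filters. Of the value columns, 0 had no sample.

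Groups came from the sample labels. Library totals were recovered as reads divided by RPM, and levels were recomputed from them. Positions are counted from 1. Counts of circRNAs with at least 20 reads were tested with edgeR 4.0.16 (quasi-likelihood) in R 4.3.3, and log2(FPKM + 0.1) of hosts with a mean of at least 0.5 FPKM with limma 3.58.1, over the 8 libraries outside cortex, with region as a block, Benjamini-Hochberg adjusted p-values and 0.05 as the threshold. The common dispersion was 0.443 with 3 residual degrees of freedom. DESeq2 1.42.0 was an alternative. p-values measure the spread between regions, not between animals. Both fits were tested on simulated data with log2 changes of 3. The edgeR fit recovered 63.4% of 41 changed circRNAs and called 0.806% of the unchanged. Its simulated counts had a lower dispersion than the 0.443 fitted here. The limma fit recovered 100% of 200 changed hosts and called 0.704% of the unchanged. Named were all lines of both hosts, minor circRNAs individually from 10 reads, and the nearest circRNAs by correlation. Sequences are not analysed here. The planned tests of the main chromosome 13 circRNA used a line that does not add up, so only its alternative with all lines is given. Marker genes that are withheld are not reported here.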

Additional observations from a re-analysis of the deposited data

Results flagged for a closer look

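The main circRNA of ENSSSCG00000026340 differed between regions in the direction of its E115 over E60 ratio of RPM. The ratio was 0.524 in basal ganglia, below 1, and 3.82 in brain stem, 2.80 in hippocampus and 1.92 in cortex, above 1, each with a counting interval that leaves out 1. As a share of the circRNA reads of the library, this circRNA took 1.32% at E115 against 1.73% at E60 in basal ganglia. The shares were 1.96% against 1.74% in brain stem and 1.39% against 1.02% in hippocampus. In each of these regions the share intervals of the stages overlapped, whereas cortex was at 2.53% against 0.286%. Each ratio rests on 1 library per stage, and the difference between the regions was not tested. The E115 basal ganglia library is the smallest of the 14, with 9.67 M reads, and its part in the ratio was not tested.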

How the results depend on the processing

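Of 87 alternative values for 17 results, 68 were counted as the same, 15 moved and 4 turned round. For log2 changes from the fits, the same meant an equal direction and side of the threshold. Region terms had to keep their side of the threshold, and the mean of circRNA level over host FPKM its direction. Counts of calls had to stay close, and shares and cortex ratios inside the counting interval of the main value. The stages were paired by region in all tests outside cortex. Pairing by replicate number was not possible because each group is 1 library and the labels give no such numbers. The number of circRNAs called for the day effect outside cortex was 1, and it was 3 with TMM factors, 0 without a filter on reads, 0 with all lines and 0 with cortex included. Leaving out 1 region at a time gave 0 to 9 circRNAs, the 9 without basal ganglia and 0 without each of the others, and 0 to 2 for the region term, the 2 without basal ganglia. Hosts called numbered 169, 10 without a filter on low FPKM and 46 to 206 when 1 region was left out. The log2 change of the chromosome 13 host turned to 0.31 without basal ganglia and was -0.55 without hippocampus. The mean of circRNA level over host FPKM turned to 0.17 with cortex (exact sign-flip p = 0.6875) and to 0.33 without basal ganglia, and was lowest without hippocampus (-0.21). The value with cortex used the FPKM headed cortex in the regions table, 21.8 at E115 and 21.7 at E60. In the cortex table the host was at 50.5 and 23.8 FPKM. By that table circRNA level per 1000 host FPKM was lower at E115 (74.4 RPM) than at E60 (82.4), so the turn with cortex depends on the headings. As shares of the circRNA reads of lines that add up, the cortex ratios of E115 to E60 were further from 1, since circRNA reads were fewer at E115. They were 5.96 for the main chromosome 13 circRNA and 7.18 for the main chromosome 6 circRNA. With the cortex reads of the regions table, an alternative chosen after seeing the data, the ratio of the main chromosome 13 circRNA turned to 0.461. Relative to the reads of the regions lines that add up, which leave out its own line, it was 2.12. The log2 day effect of the main chromosome 6 circRNA lay between 0.0097 (TMM) and 1.29 (without basal ganglia, edgeR adjusted p = 0.199). Other causes were not tested. Low depth outside cortex, with 518 to 6056 circRNA reads a library, left 3 of the circRNAs of these genes with at least 20 reads, of which 1 was not used because its line does not add up.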

Other observations

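Of 8 circRNAs of the 2 genes that stand in both tables, 7 had the same E115 and E60 cortex reads in both, and the exception was the main chromosome 13 circRNA. Among all circRNAs whose line adds up in the cortex table but not in the regions table, the cortex reads differed in 110 of 137, and among those that add up in both they differed in 0 of 2341.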
